A study of Mus musculus with 8 samples.

Results

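The genes that build the synaptic vesicle release machinery were followed in mouse dorsal root ganglia (DRG), the clusters of sensory nerve cell bodies beside the spinal cord, before and after an inflammation of the hind paw. The genes were chosen by symbol and level. They were every row of the count table named as a synaptotagmin, Doc2 protein, syntaxin, syntaxin-binding protein, SNAP-25 family member, VAMP, Unc13, Rims, complexin, synapsin, SV2 protein, synaptophysin or synaptogyrin, with a mean of at least 0.5 CPM, the read count scaled to a common library total, over the 8 libraries. The names matched 78 of the 24421 genes in the table, and 71 reached the level. All 71 were also among the 17328 genes with enough counts to be tested.

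The mice were 8-week-old C57BL/6J, wild type in the sample titles. The 0d libraries came from naive, untreated mice, and the 1d, 3d and 30d libraries from mice killed 1, 3 and 30 days after 20 µL of 1% carrageenan, an inflammatory polysaccharide, was injected under the skin of the left hind paw. Ganglia L3 to L5 of 2 to 3 mice were pooled for a library, with 2 such pools per time point, so the spread between libraries is that between pools. No vehicle-injected animals were among the samples, and the injection cannot be told apart from the time elapsed since 0d.

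Neurons store transmitter in synaptic vesicles and release it when a VAMP on the vesicle zips together with a syntaxin and a SNAP-25 protein on the target membrane; such proteins are called SNAREs. Unc13 and Rims proteins prime docked vesicles, complexins hold and help the SNARE bundle, syntaxin-binding proteins guide its assembly, and synaptotagmins couple fusion to calcium. In sensory neurons the proteins are made in the ganglion and carried along the axon to the terminals in the spinal cord and the skin, where the same machinery also secretes peptides and inserts channels and receptors into the membrane.

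The libraries held 44123208 to 73580338 assigned counts, and the 71 genes took 1.29% to 1.34% of them. Their median count per library at 0d was 2708.5, against 982.5 over all genes tested. The samples are labeled as DRG neurons. Neuronal markers summed to 24704 to 26495 CPM over the 14 genes of the list, and none was at 0 in all libraries. Schwann cell markers summed to 5436 to 10789 CPM over 6 genes, and satellite glia markers to 2851 to 3464 CPM over 6 genes, so the libraries were whole ganglion rather than neurons alone. In such bulk tissue, fewer cells of a type and less RNA per cell cannot be told apart.

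The promoters of the genes were examined as the stretch of 250 bases before the annotated start of transcription (RefSeq, GRCm38.p6), which was on hand for 53 of the 71 genes. The sequence GGGCGG, the GC box bound by Sp-family factors, occurred on either strand in at least 1 window of 40 of the 53 genes (75.5%), against 35.4% of 27025 genes with such a window. These windows were rich in G and C, with a median of 61.2% against 52.4% over all windows, and held a median of 15 CpG dinucleotides against 6. The cAMP response element TGACGTCA was found in 2 of the 53 (Stxbp3 and Syn1, 3.77% against 1.77% of all genes). The letters TTCAGCACC, the left part of the RE1 element bound by the neuronal repressor REST, were found in 1 (Syn1, 1.89% against 0.348%). No motif overlapped another in the windows printed here. Such matches are a description of the letters and not of binding.

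Both windows below are printed 5′ to 3′ on the strand of the gene, in lower case with the matched motifs in capitals. Unc13a is shown because it passed the test against 0d. Its window, chr8:71671758-71672007 on the minus strand, holds the GC box 2 times, read as CCGCCC, beginning 50 and 26 bases before the start. Syn1 is shown because it was the one gene with both rarer motifs. Its window, chrX:20920919-20921168 on the minus strand, holds the RE1 part beginning 232 bases and the cAMP response element beginning 159 bases before the start.
Unc13a: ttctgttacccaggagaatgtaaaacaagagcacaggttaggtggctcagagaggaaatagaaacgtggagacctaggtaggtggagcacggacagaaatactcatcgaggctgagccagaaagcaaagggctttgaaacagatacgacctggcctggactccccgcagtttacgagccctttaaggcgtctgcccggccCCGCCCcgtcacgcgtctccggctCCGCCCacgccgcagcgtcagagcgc
Syn1: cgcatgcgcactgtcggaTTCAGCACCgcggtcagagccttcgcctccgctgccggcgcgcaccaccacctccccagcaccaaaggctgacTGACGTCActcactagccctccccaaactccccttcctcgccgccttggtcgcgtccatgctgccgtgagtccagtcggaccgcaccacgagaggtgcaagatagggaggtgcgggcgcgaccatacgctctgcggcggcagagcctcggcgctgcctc

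Levels were compared between genes as CPM per kilobase of exon, the CPM divided by the exon length in the deposited table. Before injection the 71 genes spanned from 0.547 for Syt10 to 619 for Snap25.

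Among the vesicle SNAREs (6 genes), Vamp2 led with 255 ± 17.0 CPM per kb (SD, n = 2 at 0d, as for the levels that follow) and Vamp1 came next with 200.1 ± 3.64. Vamp4, a SNARE of the Golgi and endosomes, stood at 36.1 ± 0.319. Vamp8 (13.2) and Vamp3 (12.7), SNAREs of endosomes and regulated secretion outside synapses, overlapped in their 0d libraries. Vamp5 was lowest at 3.51.

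Among the target SNAREs (18 genes), Snap25 stood at 619 ± 11.8 CPM per kb and made up 56.1% of the summed level of the group. Snap47 followed with 98.1 ± 1.80. The endosomal syntaxins Stx12 (67.7) and Stx7 (64.1) did not overlap in their 0d libraries, and the synaptic syntaxin Stx1a was at 18.2 ± 0.493. Of the 17 pairs of neighbors in the order of levels, 4 overlapped: Stx18 with Stx5a, Stx5a with Stx16, Stx17 with Snap23 and Stx3 with Stx11. Stx11 was the lowest of the group, next to Stx3 at 2.63.

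Among the syntaxin-binding genes (7 genes), Stxbp6 stood at 10.0 ± 2.03 CPM per kb and Stxbp4 was lowest at 2.31. Stxbp5, which encodes tomosyn, an inhibitor of SNARE assembly, was at 9.41 ± 0.315 and overlapped with Stxbp6.

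In the priming and fusion control group (10 genes), Cplx1 stood at 523 ± 4.89 CPM per kb, 73.2% of the summed level, followed by Cplx2 at 72.5 ± 6.04 and Rims3 at 63.3 ± 5.27. Unc13a, which encodes the primer Munc13-1, was at 23.3 ± 0.476, and its paralogs Unc13c (5.20) and Unc13b (4.62) were lower. None of the 9 pairs of neighbors overlapped. Rims4 (2.02) and Unc13d (0.959), a Munc13 known from immune cell granules, closed the group.

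The synaptotagmins and Doc2 proteins (19 genes) were led by Syt11 with 295 ± 1.10 CPM per kb, then Syt4 with 83.2 ± 3.46. Neither encodes a fast calcium sensor: both proteins are known as forms that bind calcium weakly or not at all and act on other vesicle traffic. The fast sensors came next, Syt2 with 64.7 ± 0.232 and Syt1 with 53.1 ± 4.85, and the high-affinity sensor Syt7 with 52.0 ± 0.542 overlapped with Syt1. Below Syt3 (18.9) the levels fell to 5.21 for Syt12 and to under 1 for the 6 genes Doc2g, Syt13, Syt15, Syt17, Doc2b and Syt10. Of the 18 pairs of neighbors in this group, 8 overlapped.

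The vesicle coat and membrane proteins (10 genes) had the highest group median, 64.7 CPM per kb, leaving aside the single endocytic adaptor. Syp, the vesicle membrane protein synaptophysin, stood at 233 ± 4.37, Syn1 at 187 ± 6.45, Syngr1 at 113 ± 5.30 and Syngr3 at 102 ± 9.15. Among the SV2 genes, the order was Sv2c (76.1 ± 0.248), Sv2b (53.3 ± 1.09) and Sv2a (16.5 ± 0.343), with no overlap of neighbors. Syn3 was lowest at 1.93. Snap91, which encodes the clathrin adaptor AP180 that retrieves vesicle membrane and is no SNARE, stood at 75.9 ± 1.21.

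**Figure D1:**
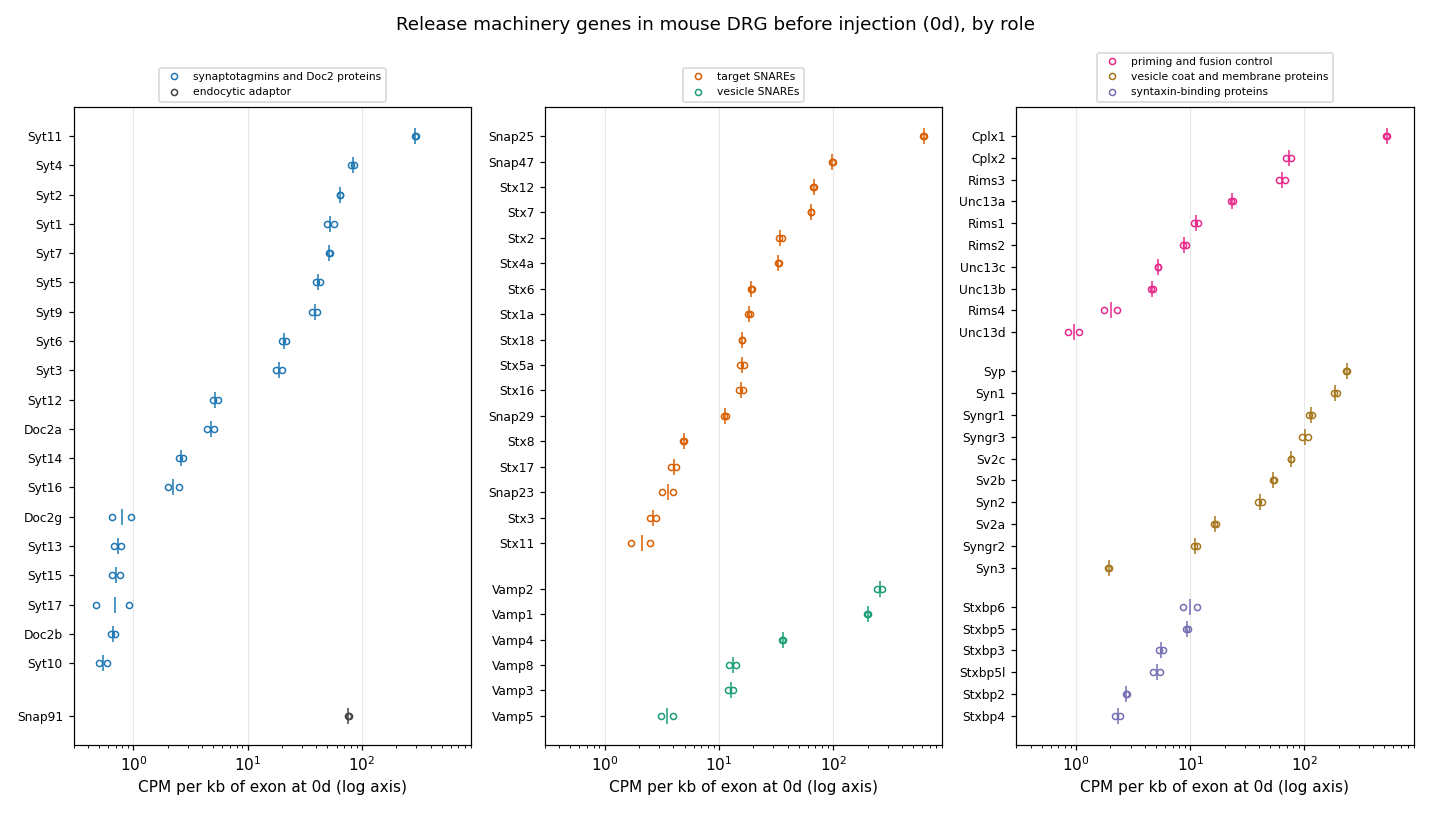
Level of 69 of the genes at 0d as CPM per kb of exon (log axis), grouped and colored by role. Open circles are the 2 libraries and the vertical tick is their mean. Snap25 (619) and Cplx1 (523) lie at the top, and Syt10 (0.547) at the bottom.

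The 7 matching genes below the level were Syngr4 (mean 0.113 CPM), Cplx3 (0.0638), Cplx4 (0.0442), Stx19 (0.0314), Syt8 (0.0173), Stxbp3-ps, a pseudogene by its symbol (0.0163) and Vamp7 (0). Vamp7 had 0 counts in all 8 libraries. The deposited annotation places it on a scaffold with no position on a chromosome, and all 10 genes on such scaffolds had 0 counts in every library, so its 0 cannot be read as a level. The genes just inside the limit were Syt10 (1.04 CPM) and Doc2g (1.08).

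For 60 of the 71 genes, less than 1% of the 50-base stretches of their transcripts occurred in another gene. The exceptions above 10% were Doc2g, with 72.9% shared with Gm49405, and Stxbp3, with 21.2% shared with Stxbp3-ps, and their levels are uncertain. Exons of 64 genes overlapped no other gene. The largest overlap was that of Stx18 with Nsg1, at 22.9% of the exon bases of Stx18, followed by Syt12 with A930001C03Rik (14.2%), Doc2a with Ino80e (10.8%) and Syt6 with Atg4a (9.48%). How reads in overlapping exons were counted is not given in the sources used here.

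Over the time course the levels moved little. The highest of the 8 libraries was a median of 1.18 times the lowest, and for 39 of the 71 genes it was under 1.2 times. The steadiest gene was Syt2, at 1.03 times, with CPM of 219 to 225. Of the 58 genes with a mean of at least 10 CPM, the widest was Vamp8 at 1.53 times. Both genes over 2 times, Syt17 (2.42) and Rims4 (2.02), were among the 13 below 10 CPM. The summed level of the 71 genes lay between 13032 CPM (3d, replicate 2) and 13367 CPM (1d, replicate 2).

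**Figure D2:**
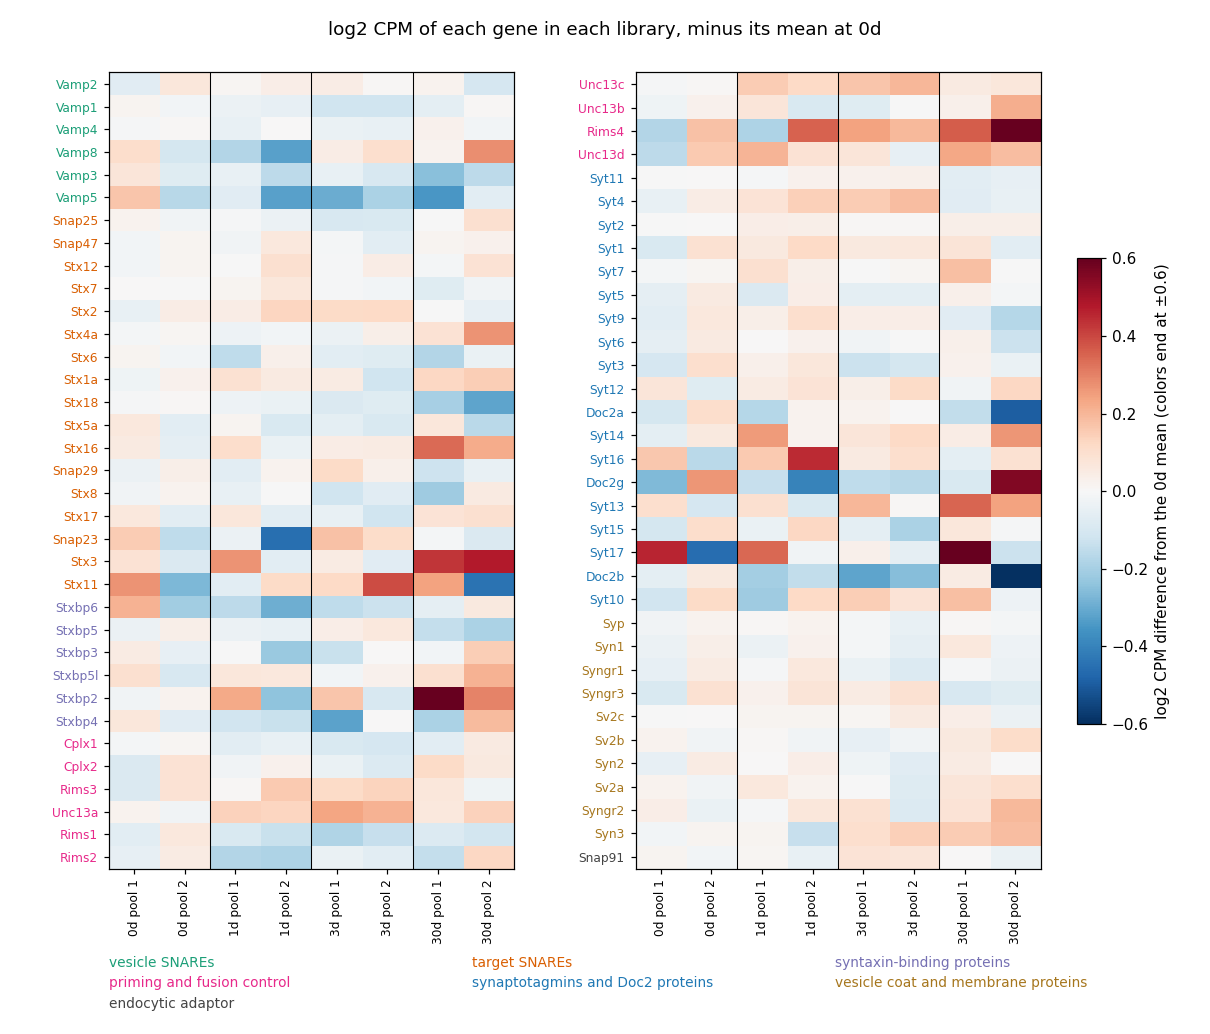
log2 CPM of 69 of the genes in each of the 8 libraries, minus the mean of the 2 libraries at 0d. Rows are genes ordered by role and level, with names colored by role, columns are libraries, and colors end at a difference of 0.6 in either direction. The strongest colors sit in genes with few counts, such as Syt17 and Rims4, while the abundant genes stay pale.

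Time points were then compared in 5 pairs with the edgeR quasi-likelihood F-test over all tested genes, and 30d was not compared with 1d. A gene was called at a Benjamini-Hochberg adjusted p under 0.05. At 1d, none of the 71 genes was called against 0d, where 0.346% of all tested genes were. At an unadjusted p under 0.05 there were 4 (5.63%), against 4.47% of all tested genes. At 3d against 0d, Unc13a alone was called, where 0.219% of all tested genes were. The unadjusted count was 8 (11.3%, 4 higher and 4 lower), against 5.94%. At 30d against 0d, none was called, where 0.0231% of all tested genes were, and 11 passed unadjusted (15.5%, 6 higher and 5 lower), against 12.3%. With DESeq2 the counts called against 0d were 0 at 1d, 2 at 3d (Unc13a and Syt4) and 1 at 30d (Stx16), where 0.674%, 0.654% and 1.1% of all genes were called.

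The later steps of the course were compared in the same fit, and they share libraries with the comparisons above. From 1d to 3d none of the 71 genes was called, where 0.289% of all tested genes were, and 5 passed unadjusted (7.04%), against 4.24%; DESeq2 also called 0, where 0.66% of all genes were called. From 3d to 30d, Syt4 alone was called, lower at 30d, where 0.935% of all tested genes were. Unadjusted, 23 genes passed (32.4%, 12 higher and 11 lower at 30d), against 13% of all tested genes. The median size of the log2 fold change was 0.113 for the 71 genes and 0.111 for all tested genes. The 71 genes had a higher median count, and its part in this share was not tested. DESeq2 called 4 of the 71 genes from 3d to 30d (Syt4, Stxbp5, Stx3 and Snap25), against 2.52% of all genes. The test for any difference among the 4 time points called Syt4 alone, where 1.02% of all tested genes were called, and DESeq2 called 4 (Syt4, Unc13a, Stx16 and Stx3), against 3.2% of all genes. The median log2 fold change of the 71 genes was 0.01 at 1d, -0.01 at 3d and 0.01 at 30d against 0d, -0.03 at 3d against 1d and 0.05 at 30d against 3d, and that of all tested genes was 0.00 in each.

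Most of the differences were bounded by these data. For 59 genes at 1d, 62 at 3d and 59 at 30d against 0d, the 95% interval of the log2 fold change lay within 0.5 in either direction, and for 46, 39 and 37 of them within 0.25. The wider intervals belonged mostly to genes with few counts, for example Syt17 at 1d, with an interval of -0.80 to 1.02.

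**Figure D3:**
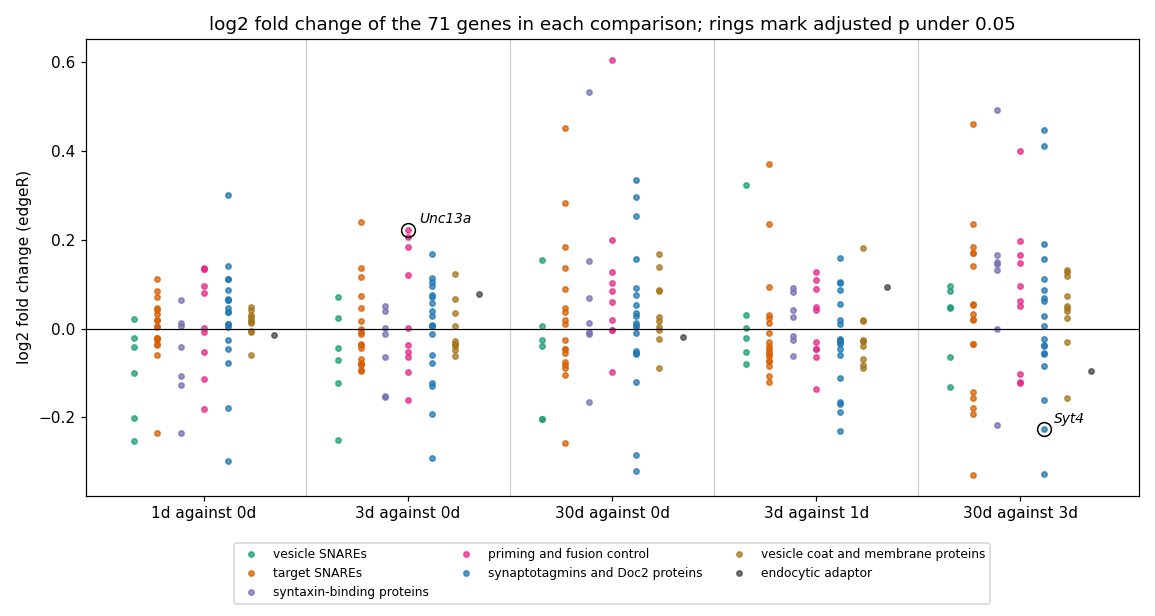
log2 fold change of the 71 genes (vertical axis) in each of the 5 comparisons, one point per gene, colored by role. Rings mark the genes called at an adjusted p under 0.05, which were Unc13a at 3d against 0d (0.22) and Syt4 at 30d against 3d (-0.23).

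Unc13a (chromosome 8, 71626712 to 71671757, minus strand, mm10) encodes Munc13-1, which opens syntaxin so that vesicles become ready for fusion. It gave 188 and 182 CPM at 0d, then 204 and 203 by 1d, 218 and 214 by 3d and finally 194 and 204 by 30d. The libraries at 1d, 3d and 30d all lay above those at 0d, and the libraries at 3d lay above all others. At 3d it was higher than at 0d by 0.22 on the log2 scale (SE 0.0425, edgeR adjusted p = 0.0499). This value stood at the edge of the threshold, and the call was lost with RLE scaling, without robust estimation, with the length trend removed and without any 1 of the 0d, 1d and 3d libraries, with the log2 fold change between 0.20 and 0.24 in all 8 fits that left out a library. The first 0d library stood apart in its sums of Schwann cell markers (10789 CPM against 5436 to 9026 in the others), vessel and fibroblast markers (1613 against 1121 to 1234) and muscle markers (133 against 19.8 to 107), and without it the log2 fold change was 0.24 (edgeR adjusted p = 0.0970). At 1d the log2 fold change against 0d was 0.13 (SE 0.0427, edgeR adjusted p = 0.585), and at 30d it was 0.10 (SE 0.0425, edgeR adjusted p = 0.355). For the test of any difference, its edgeR adjusted p was 0.0772.

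The paralogs of Unc13a had fewer counts. Unc13c gave 41.8 and 42.1 CPM at 0d, then 46.6 and 45.6 by 1d, 47.2 and 48.2 by 3d and finally 43.6 and 44.0 by 30d, so that its libraries at 0d were again the lowest and those at 3d the highest. The log2 fold change of Unc13c at 3d was 0.18 (SE 0.0592, edgeR adjusted p = 0.475). Unc13b was measured at 29.0 and 30.1 CPM at 0d and 28.1 and 29.5 at 3d, and its libraries overlapped.

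Syt4 encodes a synaptotagmin known as an activity-regulated protein of vesicles and dense-core granules. It gave 315 and 334 CPM at 0d, then 344 and 358 by 1d, 361 and 369 by 3d and finally 309 and 314 by 30d. The libraries at 3d lay above all others and those at 30d below all others. At 30d it was lower than at 3d by a log2 fold change of -0.23 (SE 0.0420, edgeR adjusted p = 0.0220), and it also passed the test of any difference (edgeR adjusted p = 0.0385), though not without 1d replicate 2, either 3d library or 30d replicate 1, nor without robust estimation or with the GC trend removed. The call at 30d against 3d was lost without either 3d library (log2 fold change between -0.24 and -0.21 in the 8 fits that left out a library). Against 0d the log2 fold change was 0.11 at 1d (SE 0.0421, edgeR adjusted p = 0.853), 0.17 at 3d (SE 0.0420, edgeR adjusted p = 0.188) and -0.06 at 30d (SE 0.0420, edgeR adjusted p = 0.603).

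Markers of neurons and of other cell types were called in the same comparisons as Unc13a and Syt4, where 0.219% and 0.935% of all tested genes were. Calca, which encodes the peptide CGRP, gave 798 and 892 CPM at 0d, then 1039 and 1076 by 3d and finally 791 and 784 by 30d. It was called at 3d against 0d (log2 fold change 0.32, edgeR adjusted p = 0.0237) and at 30d against 3d (-0.43, edgeR adjusted p = 0.00201). Scn10a, a sodium channel of nociceptors, was called at 3d against 0d (0.22, edgeR adjusted p = 0.0499). The other 12 neuronal markers were not called in either comparison. At 30d against 3d, 11 of the 14 neuronal markers had negative fold changes (median -0.05). Unadjusted, 4 of the 14 passed, all lower at 30d, where 13% of all tested genes passed. At 3d against 0d, 4 of the 14 passed unadjusted (3 higher and 1 lower), where 5.94% of all tested genes did. The neuronal sums of both 30d libraries (24704 and 25150 CPM) lay below those of the other 6 (25472 to 26495 CPM). Cx3cr1, a macrophage marker, was lower at 3d than at 0d (log2 fold change -1.02, edgeR adjusted p = 0.00794), while the median of the 7 macrophage markers was -0.03, with Lyz2 at 0.24 and Aif1 at 0.17 (-0.52 without 3d replicate 2). Myh1, a myosin of skeletal muscle, was lower at 3d than at 0d (-1.61, edgeR adjusted p = 0.0237) and higher at 30d than at 3d (1.35, edgeR adjusted p = 0.0292), and all 7 muscle markers had negative fold changes against 0d at every later time point. At 30d against 3d, 3 of the 7 muscle markers had positive and 4 had negative fold changes, with a median of -0.01. Apoe, a satellite glia marker, was lower at 30d than at 3d (-0.23, edgeR adjusted p = 0.0128). Of these marker calls, that of Calca at 30d against 3d held in all 8 fits that left out a library. The others were lost without either 3d library, those of Calca, Scn10a and Myh1 at 3d against 0d also without 0d replicate 1, and that of Scn10a also without either 1d library. Without robust estimation the calls of Calca and Scn10a at 3d against 0d and both calls of Myh1 were lost, and that of Scn10a was lost also with RLE scaling and with the length trend removed (edgeR adjusted p up to 0.131). All 6 Schwann cell markers had positive fold changes at 3d against 1d and negative ones at 30d against 3d (median -0.38), and none was called. The part of these cells in the values of Unc13a and Syt4 was not tested.

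The other genes with the smallest p at 30d were SNAREs and a SNARE inhibitor, and none of them was called in the edgeR fit used throughout, though other settings called some. Stx16, a syntaxin of the trans-Golgi network, gave 60.2 and 56.0 CPM at 0d, then 62.4 and 56.5 by 1d, 59.9 and 60.0 by 3d and finally 73.6 and 67.7 by 30d. Both libraries at 30d lay above all others. The log2 fold change at 30d against 0d was 0.28 (SE 0.0654, edgeR adjusted p = 0.121), and it was called without 30d replicate 2 (edgeR adjusted p = 0.0339), without the filter on low counts (edgeR adjusted p = 0.0169), with the replicate block (edgeR adjusted p = 0.04997) and by DESeq2 (adjusted p = 0.0265).

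Stx3, a syntaxin of apical membranes and ribbon synapses, gave 13.9 and 12.3 CPM at 0d, then 15.8 and 12.5 by 1d, 13.6 and 12.5 by 3d and finally 17.7 and 18.3 by 30d. The libraries at 30d were again the highest. The log2 fold change was 0.45 at 30d against 0d (SE 0.121, edgeR adjusted p = 0.171) and 0.46 at 30d against 3d (SE 0.121, edgeR adjusted p = 0.100). The latter was called without the filter on low counts (edgeR adjusted p = 0.0274) and by DESeq2 (adjusted p = 0.0353).

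Stx18, a syntaxin of the endoplasmic reticulum, gave 40.2 and 40.4 CPM at 0d, then 39.5 and 39.2 by 1d, 37.9 and 38.3 by 3d and finally 35.1 and 32.4 by 30d. The pairs of libraries did not overlap between any 2 time points, and each later time point was lower. The log2 fold change at 30d against 0d was -0.26 (SE 0.0663, edgeR adjusted p = 0.152). Its exon neighbor Nsg1 was measured at 110 and 108 CPM at 0d and 99.6 and 105 at 30d (log2 fold change -0.10, edgeR adjusted p = 0.453).

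Stxbp5, the tomosyn gene, gave 83.4 and 87.4 CPM at 0d, then 83.3 and 82.8 by 1d, 87.8 and 89.2 by 3d and finally 77.3 and 74.9 by 30d. The libraries at 30d lay below all others. The log2 fold change at 30d against 3d was -0.22 (SE 0.050, edgeR adjusted p = 0.0603), and it was called without either 0d library or without 30d replicate 1, with edgeR adjusted p down to 0.0395. It was also called without the filter on low counts and with the length trend removed (edgeR adjusted p = 0.0217 and 0.0474) and by DESeq2 (adjusted p = 0.0178). At 30d the satellite glia markers had sums of 2851 and 2984 CPM, of which Apoe made 1819 and 1911, against 3197 to 3464 in the other 6 libraries. Of the 6 genes, 5 had negative fold changes at 30d against 0d, with Glul at 0.12 on the log2 scale, and 5 against 3d, with Fabp7 at 0.65. Both values turned on 1 library: leaving out 30d replicate 1 gave -0.047 for Glul and 1.09 for Fabp7 (edgeR adjusted p = 0.00111), and leaving out 30d replicate 2 gave 0.27 for Glul (edgeR adjusted p = 0.0114) and -0.017 for Fabp7. The first 30d library had the lowest Schwann cell sum (5436 CPM), and it had the highest sum of red blood cell markers (515 CPM against 141 to 282 in the others). The neuronal sums were lower as well, as given above. The part of these cells in the 30d values was not tested.

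**Figure D4:**
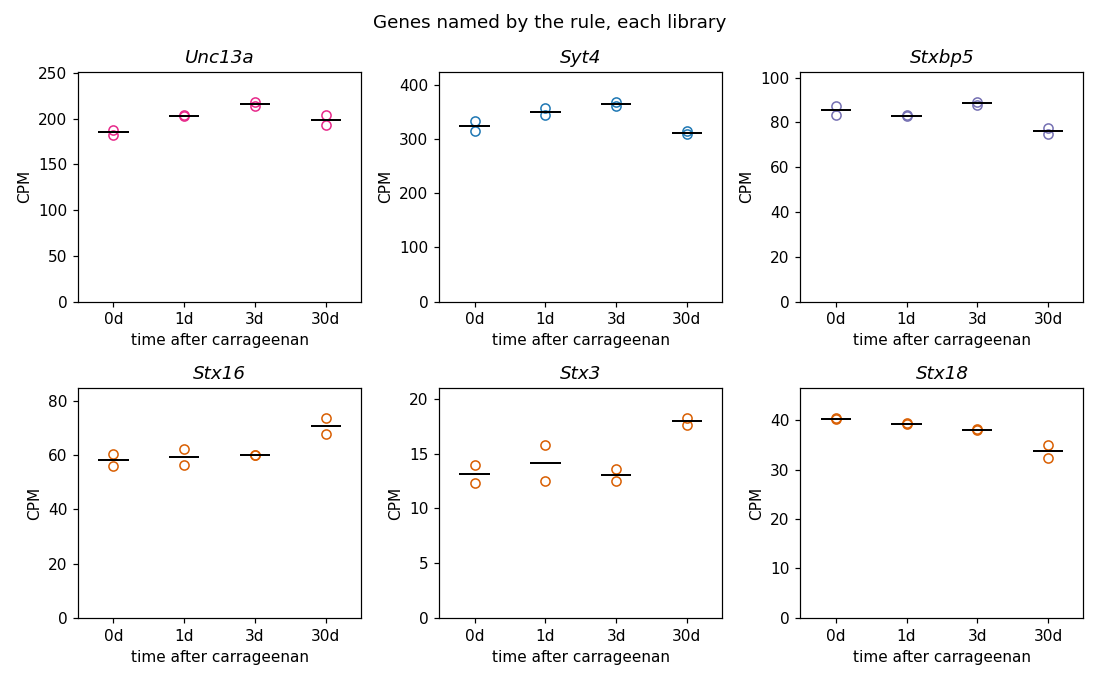
CPM of 6 genes in each library by time point, with the vertical axis from 0. Circles are the libraries and the horizontal line is their mean. Unc13a and Syt4 are highest at 3d (214 to 218 and 361 to 369 CPM), and Stx16, Stx3, Stx18 and Stxbp5 stand apart at 30d.

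The remaining genes named by the smallest p had small differences, none of them called. Rims2, an active zone scaffold, was measured at 68.2 and 73.0 CPM at 0d and 62.5 and 62.0 at 1d, a log2 fold change of -0.18 (SE 0.0744, edgeR adjusted p = 1.00). Vamp1, a vesicle SNARE of spinal and sensory neurons, was measured at 639 and 623 CPM at 0d and 580.1 and 579.9 at 3d, a log2 fold change of -0.12 (SE 0.0378, edgeR adjusted p = 0.440). The libraries did not overlap in either case, which adds nothing, since both genes were chosen by their small p in that comparison.

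From 1d to 3d, Syt3 was measured at 48.1 and 49.4 CPM and then 43.0 and 43.7, a log2 fold change of -0.17 (SE 0.0703, edgeR adjusted p = 1.00). Vamp8 was measured at 9.15 and 8.23 CPM and then 10.7 and 11.1, a log2 fold change of 0.32 (SE 0.135, edgeR adjusted p = 1.00). Snap91 was measured at 344 and 332 CPM and then 362 and 359, a log2 fold change of 0.09 (SE 0.0391, edgeR adjusted p = 1.00). In each of the 3 genes the libraries at 1d and 3d did not overlap, but the genes were chosen by their small p in this comparison.

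The most abundant genes of the machinery stayed within narrow bounds. Snap25 gave 1403 and 1366 CPM at 0d, then 1376 and 1353 by 1d, 1293 and 1301 by 3d and finally 1381 and 1478 by 30d, so that its 3d libraries were the lowest. At 3d against 0d the log2 fold change of Snap25 was -0.09, with a 95% interval of -0.18 to -0.01. At 30d against 3d it was 0.14 (SE 0.0390, edgeR adjusted p = 0.124), which was called without 30d replicate 1 and by DESeq2 (adjusted p = 0.0284). Cplx1 was measured at 1140 and 1155 CPM at 0d and 1075 and 1068 at 3d, and its interval was likewise -0.18 to -0.01. Syp lay between 562 and 587 CPM in all 8 libraries, Vamp2 between 513 and 577 and Syn1 between 577 and 626. For each of these last 3 genes, the libraries at every later time point overlapped those at 0d.

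By role, the counts at an unadjusted p under 0.05 from 3d to 30d were 8 of 18 target SNAREs, 3 of 7 syntaxin-binding genes, 3 of 10 genes of priming and fusion control, 4 of 19 synaptotagmins and Doc2 genes, 3 of 10 coat and membrane genes, 1 of 6 vesicle SNAREs and Snap91, where 13% of all tested genes passed. The shares ran from 16.7% for the vesicle SNAREs to 44.4% for the target SNAREs, with Snap91 a single gene. All 4 of the synaptotagmin and Doc2 genes that passed (Syt4, Syt9, Syt11 and Doc2a) were lower at 30d, while of all 19 in the group 10 were higher and 9 lower. Of the target SNAREs that passed, 5 were higher and 3 lower. In the syntaxin-binding, the priming and the coat and membrane groups, 2 were higher and 1 lower in each. The vesicle SNARE was higher and Snap91 lower. Over the 5 comparisons, edgeR called 2 of the 71 genes at least 1 time (2.82%, Unc13a and Syt4), against 1.32% of all tested genes. In the same comparisons, 40 of the 71 genes never had an unadjusted p under 0.05 and 31 (43.7%) did at least 1 time, against 25% of all tested genes. These shares, by role and in all, were not compared with those of genes of like count.

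The balance between paralogs was compared as the log2 ratio of their CPM per kb, library by library, in 9 pairs, of which 8 are described here. Snap25 exceeded Snap23, its relative in non-neuronal cells, 175-fold at 0d, with a log2 ratio from 7.18 to 7.87 over the 8 libraries. Cplx1 exceeded Cplx2 7.23-fold, Unc13a exceeded Unc13b 5.03-fold and Syn1 exceeded Syn2 4.58-fold at 0d. Sv2a was at 0.309 of Sv2b. The closest pairs were Syt1 to Syt2 (0.819), Vamp1 to Vamp2 (0.786) and Rims1 to Rims2 (1.26), each on the same side of 1 in all 8 libraries. That side rests on the exon lengths. In CPM at 0d each order was reversed: Syt1 256 and Syt2 219, Vamp1 631 and Vamp2 551, Rims1 45.5 and Rims2 70.6.

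No pair had a p under 0.05, adjusted or not, for a change of its ratio over the time points by a two-sided exact permutation test over the 2520 ways of placing the 8 libraries in 4 groups of 2. The smallest p that this design allows is 0.00952, or 0.0857 after adjustment if a single pair of the 9 reached it, so that 1 pair alone could not pass. The smallest p was that of Unc13a to Unc13b (exact permutation p = 0.0857, adjusted over the 9 pairs 0.571). Its log2 ratio was 2.38 and 2.28 at 0d, then 2.40 and 2.55 by 1d, 2.64 and 2.54 by 3d and finally 2.37 and 2.25 by 30d, and the libraries at 3d and 1d overlapped.

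**Figure D5:**
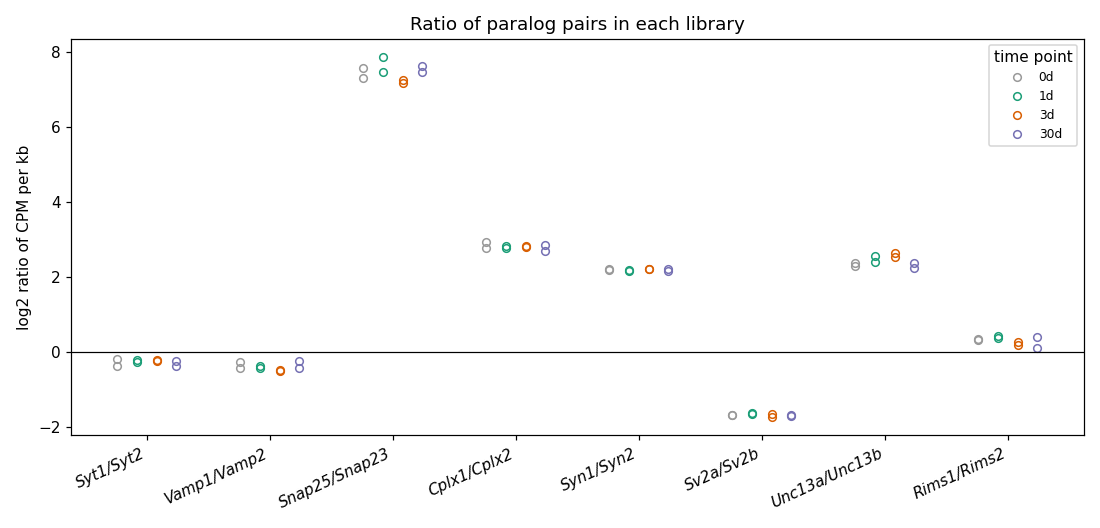
log2 ratio of CPM per kb between 8 pairs of paralogs (vertical axis), one circle per library, colored by time point. The pairs differ widely, from 7.45 for Snap25 to Snap23 to -1.70 for Sv2a to Sv2b at 0d, while the time points of a pair lie close together.

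Other genes of the vesicle cycle were taken from 3 lists. None of the 22 genes of vesicle recycling, 29 tested active zone genes and SNARE cofactors, or 14 tested vesicle transporters and proton pump subunits was called by edgeR in any of the 5 comparisons. DESeq2 called Dnm3 at 30d against 0d, and Rab27a, Rab27b, Rab3d and Slc17a7 at 30d against 3d, where it called 1.1% and 2.52% of all genes. From 3d to 30d, 6 of 22 (2 higher, 4 lower), 7 of 29 (1 higher, 6 lower) and 2 of 14 (1 higher, 1 lower) had an unadjusted p under 0.05. That is 27.3%, 24.1% and 14.3%, against 13% of all tested genes, and genes of like count were not compared. The sum of the recycling genes lay between 6314 and 6469 CPM, that of the active zone genes between 5216 and 5358 CPM and that of the transporters and pump between 3160 and 3308 CPM.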

How the data were processed

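RNA of pooled L3 to L5 ganglia was sequenced in 8 libraries, 2 per time point. The authors deposited raw read counts per gene with exon lengths. Per the submitters' processing notes, cutadapt 2.10, STAR 2.7.5a and featureCounts 2.0.1 were used with mm10. Totals were 44123208 to 73580338 counts per library. Replicates differed by more than counting noise (chi-square per degree of freedom 7.19 to 25.4), so none was merged.

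The members and all lists were chosen with earlier results of these data known. Genes passing filterByExpr were fitted in edgeR 4.0.16 (R 4.3.3, TMM factors 0.993 to 1.01, robust quasi-likelihood, 1 fit of 8 libraries), with Benjamini-Hochberg adjustment over 17328 genes. CPM values use these factors, and log2 CPM a prior count of 2. Paralog ratios were tested by exact permutation. The alternatives were other scaling (RLE), no filter, DESeq2 1.42.0, no robust estimation, a replicate block, length and GC trends, the compared groups only and leaving out each library. Genes were named in full if called, if among the 3 smallest p of a comparison, or in the paralog pair of smallest p, with others given for their level. Some genes are counted in these totals but are not reported here by name. The lists covered vesicle recycling, active zone genes and SNARE cofactors, transporters and proton pump, and 8 sets of cell type markers. Among the markers, 2 of 14 neuronal, 1 of 6 satellite glia (Apoe, lower at 30d), 0 of 6 Schwann cell, 1 of 7 macrophage (Cx3cr1, lower at 3d), 0 of 7 vessel and fibroblast, 1 of 7 skeletal muscle (Myh1, lower at 1d and 3d than at 0d), 0 of 5 red blood cell and 0 of 4 tested spinal cord genes were called in at least 1 comparison, against 1.32% of all tested genes.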

Additional observations from a re-analysis of the deposited data

Results flagged for a closer look

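Syt4 differed between 3d and 30d, by a test of that difference itself. Its log2 fold change at 30d against 3d was -0.23 (SE 0.0420, edgeR adjusted p = 0.0220), with both 30d libraries (309 and 314 CPM) below both 3d libraries (361 and 369 CPM). The call was lost without either 3d library, as given above. With 2 libraries per time point, no single library could be tested as an outlier.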

How the results depend on the processing

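The fold changes printed for single genes kept their signs under every alternative run, except those of 3 marker genes that were not called with all libraries: leaving out 1 library in turn gave -0.52 (without 3d replicate 2) to 0.63 for Aif1 at 3d against 0d, -0.047 (without 30d replicate 1) to 0.27 for Glul at 30d against 0d and -0.017 (without 30d replicate 2) to 1.09 for Fabp7 at 30d against 3d. The signs held for the medians of the 71 genes, except that at 1d against 0d, near 0 throughout, which was -0.01 without 0d replicate 1 and -0.00049 without 1d replicate 2. The counts of called genes moved, and the cause was not tested. At 3d against 0d, 1 gene was called in the reported fit, 0 with RLE scaling, without robust estimation or with the length trend removed, and 2 with DESeq2 (Unc13a and Syt4), where the shares of all genes were 0.202%, 0.115%, 0.19% and 0.654%. At 30d against 0d, 0 became 1 (Stx16) without the filter, with DESeq2 and with the replicate block, where 0.861%, 1.1% and 0.398% of all genes were called. At 30d against 3d, 1 became 4 without the filter and with DESeq2, and 2 (Syt4 and Stxbp5) with the length trend removed, where 1.74%, 2.52% and 1.11% of all genes were called, and Syt4 was called in all 8 alternatives that kept every library or compared 2 time points alone. For any difference among the 4 time points, 1 became 4 without the filter and with DESeq2, 2 with the replicate block, and 0 without robust estimation and with the GC trend removed, an alternative chosen after seeing the data (2.25%, 3.2%, 1.62%, 0.687% and 0.998% of all genes, in this order). A fit that left out 1 library kept only 1 at that time point, so the counts of called genes in these fits are not given. At 3d against 1d the count was 0 in every alternative. For the paralog pairs, where 1 pair alone could not pass, the smallest adjusted p by the exact permutation test was 0.571 with all libraries and between 0.0857 (without 30d replicate 1) and 0.857 in the 8 that left out a library.

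The deviations of same-numbered libraries correlated between -0.01 and 0.04 over all tested genes, which cannot exclude that replicate numbers pair the samples. With the replicate block, 0.398% of all tested genes were called at 30d against 0d, where 0.0231% were without it. The replicate block changed no other count than those given. With 2 pools per time point, the median SE of a log2 fold change was 0.07, and differences of that size were not detectable.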
